A study of Mus musculus with 4 samples.

Results

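The glycolytic enzymes are the proteins that convert glucose-6-phosphate to pyruvate, and 10 of their genes were followed through a mouse pancreatic islet series: Gpi1, Pfkl, Pfkp, Aldoa, Tpi1, Pgk1, Gapdh, Pgam1, Eno1 and Pkm. The genes were listed by name and found through their Ensembl identifiers, and all 10 were present among the 43629 genes of each count file. The series held 4 RNA sequencing libraries, 1 per group, all from islets of C57BL/6 mice. The first came from islets of genotype Rip2;IMP2, a genotype described in the title as lacking IMP2 in islets; IMP2 is an RNA-binding protein whose gene is Igf2bp2. The second held RNA recovered from wild-type (WT) islets by RNA immunoprecipitation of IMP2 (RIP), the third, also from WT islets, was labelled IgG, an antibody commonly used as the control of a precipitation, and the last came from control islets. Rip2 is a common name of an insulin gene promoter active in beta cells, so other cells of the islet may keep the intact gene. The sources used here give neither the age or pooling of the animals nor the exons targeted. The comparisons ask how the level of these genes differed in the labelled knockout, and whether their RNA was recovered with IMP2 above the antibody control.

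Glycolysis splits each hexose into triose phosphates and oxidises them to pyruvate, with a net yield of ATP and NADH. In beta cells it is part of glucose sensing: glucose enters through a transporter and is phosphorylated, and the pyruvate formed is mostly oxidised in mitochondria, which raises ATP and leads to insulin release. Several steps are carried out by isozymes encoded by separate genes, and many glycolytic enzyme genes have processed pseudogenes, copies of their mRNA inserted elsewhere in the genome.

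The targeted gene was read first. Igf2bp2 had 222 counts in the labelled knockout, 186 in the RIP, 458 in the IgG library and 255 in control islets. That is 9.14, 30.9, 34.7 and 9.68 CPM, the count divided by the sum over all genes and put on a scale shared by the libraries. Its ratio of the labelled knockout over control was 0.979 (95% interval 0.814 to 1.18), so the gene was not called lower where the label says knockout. Every direction below is therefore drawn between the library labelled knockout and the control library, without a check of the label. The libraries held 24275628 (labelled knockout), 6025594 (RIP), 13195732 (IgG) and 26350813 (control) gene counts. Markers fixed for each cell type were summed in every library. The 10 beta cell markers stood at 14877, 11392, 61.4 and 11696 CPM in the labelled knockout, RIP, IgG and control libraries, and 12 adipocyte and brown fat markers at 231, 2948, 50451 and 276 CPM. The islet label of the IgG library thus goes against its markers: the 6 alpha cell markers summed to 113 CPM there with Irx1 among those at 0, against 15260 CPM in control islets. For the enzymes, ratios of the RIP are given over the IgG library and also over control islets, which leaves the IgG library out.

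The mRNA sequence itself decides how much of each gene can be counted, since a read with more than 1 place in the genome is left uncounted. These not uniquely aligned reads made up 28.4% of the deposited total in the labelled knockout, 36.0% in the RIP, 48.2% in the IgG library and 30.7% in control islets. Coding stretches of 120 bases (GRCm38, GENCODE M21 transcripts, 5′ to 3′) are shown for 4 of the genes, from the most to the least shared. Capitals mark bases that lie in a run of 75 bases also found, on either strand, in an annotated transcript of another gene. Positions count from the first base of the coding sequence. Gapdh (chromosome 6) is shown from 471 to 590, Tpi1 (chromosome 6) from 365 to 484, Aldoa (chromosome 7) from 525 to 644, and Pfkl (chromosome 10) from 1 to 120.
Gapdh: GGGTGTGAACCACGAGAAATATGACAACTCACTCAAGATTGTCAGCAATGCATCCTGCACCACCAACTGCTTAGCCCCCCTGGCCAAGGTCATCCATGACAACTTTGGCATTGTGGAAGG
Tpi1: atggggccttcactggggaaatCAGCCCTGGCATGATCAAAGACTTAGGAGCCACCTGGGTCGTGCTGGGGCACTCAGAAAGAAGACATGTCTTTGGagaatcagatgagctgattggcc
Aldoa: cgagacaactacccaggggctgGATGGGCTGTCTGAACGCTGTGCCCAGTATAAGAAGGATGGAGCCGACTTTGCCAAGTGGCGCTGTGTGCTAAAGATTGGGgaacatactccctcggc
Pfkl: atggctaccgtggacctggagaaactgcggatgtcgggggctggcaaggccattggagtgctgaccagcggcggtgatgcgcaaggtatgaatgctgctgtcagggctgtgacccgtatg
The most widely shared run in the Gapdh stretch occurred in 49 other annotated genes, those of Tpi1 and Aldoa in 1 each, and that of Pfkl in 0. Over the whole coding sequence, such shared runs covered 94.4% of the bases of Gapdh, 20.6% of Tpi1, 19.5% of Aldoa and 0% of Pfkl.

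The uniquely alignable share was defined as the share of the 75-base runs of the transcript with the longest coding sequence that occur in no annotated transcript of another gene. It ranged widely among the enzymes. Pfkl (100%), Aldoa (98.5%) and Tpi1 (97.5%) were almost wholly unique, Gpi1 (85.2%), Pfkp (83.4%) and Pkm (80.4%) mostly so, and Pgam1 stood at 59.4%. Eno1 (34.6%), Pgk1 (32.5%) and Gapdh (11.8%) had less than 50% of their runs unique. Of 21442 protein-coding genes, 7.96% lay below 50%, and their median was 100%, against a median of 81.9% for the 10 enzymes. The runs lost had different sources. The share missing for Pfkp came from exons that overlap the antisense gene Pitrm1, with no match elsewhere. Such runs have the same place in the genome in both genes, so reads there can still align uniquely. The share of Pfkp is thus understated, and its level per alignable kb can be too high. Gpi1 likewise shared 140 runs with the overlapping gene Gm26762, and Pkm 95 with Gm49759. Pgk1 and Pgam1 were shared over their whole coding sequence, so their unique part lay outside it. For Gapdh, only 142 runs were unique in a transcript of 1273 bases. Where strand was not used in counting, antisense genes can share reads too: Gm26762 overlaps 11.5% of the Gpi1 exons. On the same strand Gm49759 overlaps 15.3% of the Pkm exons, but it was not among the genes of the count files and took no reads there. Eno1, Pfkl, Pgk1 and Pgam1 had no such overlap.

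**Figure D1:**
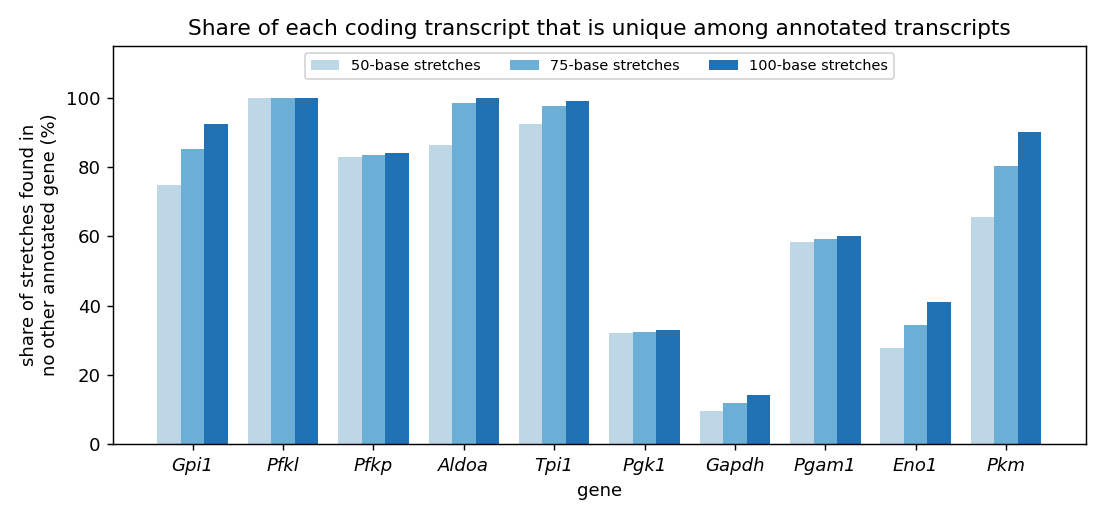
Share of the runs of 50, 75 and 100 bases of each enzyme's coding transcript that occur in no annotated transcript of another gene, in percent (y axis), by gene in the order of the pathway (x axis). Gapdh, Pgk1 and Eno1 stand lowest at each run length, with 11.8%, 32.5% and 34.6% at 75 bases, and Pfkl stands at 100%.

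The levels of the enzymes were measured first as CPM in every library. The upper steps of the pathway were well covered. Gpi1, glucose-6-phosphate isomerase (ENSMUSG00000036427, mm10 chromosome 7, 34201330 to 34230336, minus strand), had 3349 counts (138 CPM) in the library labelled knockout, 1329 (221 CPM) in the RIP, 30059 (2278 CPM) in the IgG library and 4267 (162 CPM) in control islets. Pfkl, the liver-type phosphofructokinase of the committed step (ENSMUSG00000020277, chromosome 10, 77986947 to 78010083, minus strand), had 1686 (69.5 CPM), 576 (95.6 CPM), 5557 (421 CPM) and 2113 (80.2 CPM) in the same order of libraries. Pfkp, its platelet-type isozyme (ENSMUSG00000021196, chromosome 13, 6579768 to 6648777, minus strand), had 951 (39.2 CPM), 168 (27.9 CPM), 1419 (108 CPM) and 1686 (64.0 CPM). The IgG library was the highest for all 3 genes, and the RIP was the lowest of the 4 for Pfkp only.

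Aldoa, the aldolase that splits the hexose bisphosphate (ENSMUSG00000030695, chromosome 7, 126795234 to 126800751, minus strand), had 9687 counts (399 CPM) in the library labelled knockout, 3397 (564 CPM) in the RIP, 48972 (3711 CPM) in the IgG library and 10931 (415 CPM) in control islets. Tpi1, triosephosphate isomerase, which interconverts the trioses (ENSMUSG00000023456, chromosome 6, 124810586 to 124814296, minus strand), had 2869 (118 CPM), 1029 (171 CPM), 34875 (2643 CPM) and 3055 (116 CPM) in the same order. Both islet libraries lay within a few percent of each other for these genes, and the IgG library stood far above them.

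Gapdh, glyceraldehyde-3-phosphate dehydrogenase, which makes NADH (ENSMUSG00000057666, chromosome 6, 125161715 to 125166467, minus strand), had 320 counts (13.2 CPM) in the library labelled knockout, 1 (0.166 CPM) in the RIP, 45 (3.41 CPM) in the IgG library and 316 (12 CPM) in control islets. Pgk1, phosphoglycerate kinase, which makes ATP (ENSMUSG00000062070, chromosome X, 106187100 to 106203699, plus strand), had 190 (7.83 CPM), 49 (8.13 CPM), 383 (29.0 CPM) and 319 (12.1 CPM) in the same order. Pgam1, phosphoglycerate mutase (ENSMUSG00000011752, chromosome 19, 41911923 to 41918660, plus strand), had 119 (4.90 CPM), 28 (4.65 CPM), 126 (9.55 CPM) and 143 (5.43 CPM). These 3 genes, all with a uniquely alignable share under 60%, had the lowest CPM of the 10 in the labelled knockout, RIP, IgG and control libraries alike. Gapdh was the one enzyme for which the IgG library lay below both islet libraries.

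At the end of the pathway, Eno1, enolase, which forms phosphoenolpyruvate (ENSMUSG00000063524, chromosome 4, 150236721 to 150248879, plus strand), had 1769 counts (72.9 CPM) in the library labelled knockout, 630 (105 CPM) in the RIP, 3313 (251 CPM) in the IgG library and 2441 (92.6 CPM) in control islets. Pkm, the muscle-type pyruvate kinase, which makes ATP and pyruvate (ENSMUSG00000032294, chromosome 9, 59656368 to 59679375, plus strand), had 13093 (539 CPM), 3056 (507 CPM), 36092 (2735 CPM) and 15878 (603 CPM) in the same order. Pkm had the most counts of the 10 in both islet libraries, and Aldoa in the RIP and IgG libraries. The 10 genes together made up 0.140% of gene counts in the labelled knockout, 0.170% in the RIP, 1.22% in the IgG library and 0.156% in control islets.

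**Figure D2:**
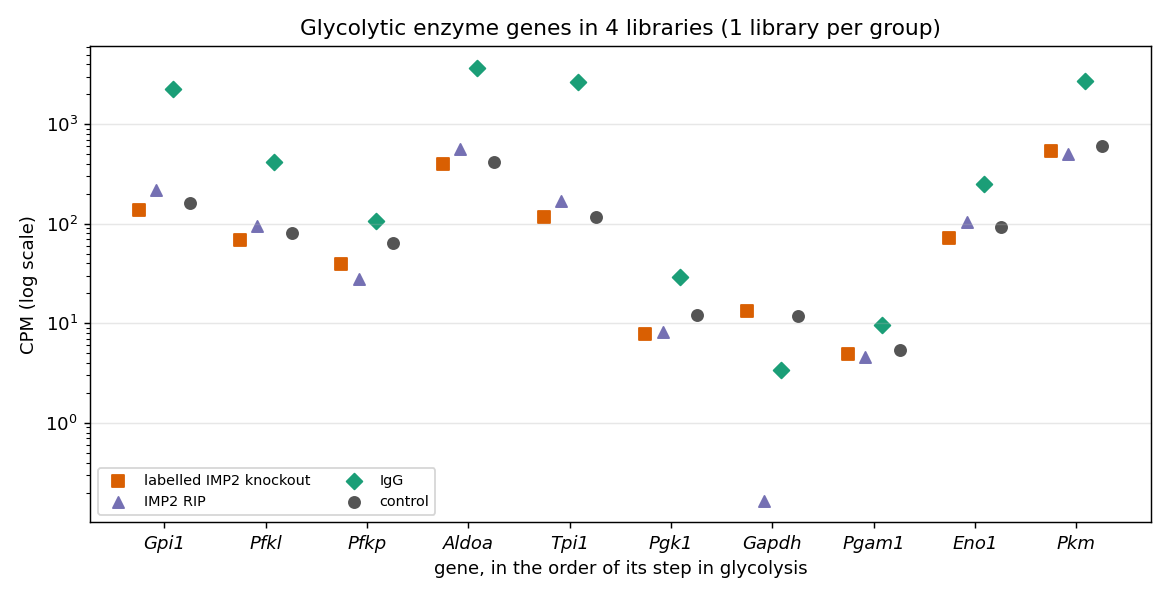
CPM of each enzyme gene (log scale, y axis) in the order of the pathway (x axis), with 1 point per library. The IgG library (diamonds) is the highest for 9 of the 10 genes and lies below both islet libraries for Gapdh, whose RIP point rests on 1 count.

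Levels between genes can be compared only per length. As CPM per kb of merged exons, Aldoa was the highest in every library, at 137 in the labelled knockout, 194 in the RIP, 1275 in the IgG library and 143 in control islets. Pkm followed in both islet libraries and in the RIP, at 108, 101 and 120.5 CPM per kb in the labelled knockout, RIP and control libraries, and Tpi1 followed in the IgG library at 960. Pgam1 was the lowest in both islet libraries, at 2.47 in the labelled knockout and 2.74 in control islets, and Gapdh was the lowest in the RIP and IgG libraries. When the length was replaced by the uniquely alignable length, the number of unique runs, Pkm took the first place in both islet libraries, at 284 CPM per alignable kb in the labelled knockout and 318 in control islets, against 275 and 285 for Aldoa. On that scale Gapdh stood at 92.8 in the labelled knockout, 1.17 in the RIP, 24.0 in the IgG library and 84.5 in control islets, and Eno1 at 108, 155, 372 and 137. A gene moved by at most 5 places of 10 between the scales in control islets. With so few unique bases, the Gapdh level per alignable kb is the least certain of the 10. The alignable length was taken from 1 transcript, whereas the counts cover all merged exons of a gene. Reads from other exons can thus make levels and ranks on that scale too high. Merged exons and transcript had 4133 and 1273 bases for Gapdh, 5379 and 2027 for Eno1, and 13401 and 4145 for Pfkp.

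A read that aligns equally well to 2 loci cannot be assigned to either of them, and the loci differ in how much they share. In all, 140 annotated loci elsewhere shared at least 1 run of 75 bases with an enzyme transcript, 121 of them with Gapdh, 6 with Eno1, 4 with Pgk1, 2 each with Aldoa, Pgam1, Pkm and Tpi1, and 1 with Gpi1. Of the 121 Gapdh loci, 114 were annotated pseudogenes and 110 were in the count files. Those 110 together held 1479 counts (60.9 CPM) in the library labelled knockout, 3415 (567 CPM) in the RIP, 5443 (413 CPM) in the IgG library and 1518 (57.6 CPM) in control islets. Sharing 1 run was enough for a locus to enter, and some loci were mostly distinct. 3000002C10Rik, with 542 of the counts in the labelled knockout and 594 in control islets, had 98.1% of its own runs unique. Gm5069, with 372 and 293, had 87.2%, so such counts need not be reads of Gapdh. The 110 loci together carried more counts than Gapdh itself in each of the 4 libraries.

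A single locus made up most of these counts in the RIP and IgG libraries. Gapdh-ps14, a processed pseudogene (chromosome 8, 41608668 to 41609669, minus strand), had 31 counts in the labelled knockout, 2786 in the RIP, 4152 in the IgG library and 45 in control islets. It gave 2.10%, 81.6%, 76.3% and 2.96% of the counts of the Gapdh loci in that order. Of its own 75-base runs, 77.0% were unique, and 14 were shared with Gapdh. Its TMM-scaled ratio of the RIP over IgG was 0.911 (95% interval 0.868 to 0.956), whereas in CPM it was higher in the RIP, at 462 against 315 in the IgG library, so its direction turns with the scaling. Over control islets the RIP ratio was 329 (245 to 452). The pseudogene Gm8174 (chromosome 15) had a like pattern, with 4, 259, 535 and 6 counts in the labelled knockout, RIP, IgG and control libraries.

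Other copies followed other patterns. The transcribed Gapdh pseudogene 3000002C10Rik had 542 counts in the labelled knockout, 1 in the RIP, 32 in the IgG library and 594 in control islets, which was high and low in the same libraries as Gapdh. Gm5069, a second transcribed Gapdh pseudogene, had 372, 111, 153 and 293. The Eno1 pseudogene Gm4735 had 314, 1, 53 and 432, and Eno1b had 78, 15, 132 and 123. Eno1 itself, in contrast to Gm4735, was higher in CPM in the RIP and IgG libraries than in control islets. Gm1840, the copy of Gpi1 (chromosome 8, 5639580 to 5641011, plus strand), had 1411, 187, 1431 and 2008 counts, less than Gpi1 in each library. Aldoart1, an aldolase retrogene, had 284, 43, 137 and 321. Pgk1-rs7 had 11, 10, 112 and 11, Gm5537, which also matches Pgk1, had 0, 1, 126 and 5, and Pgam1-ps2 had 65, 22, 0 and 97. The transcripts of these last 3 loci had no 75-base run of their own, so their counts are the least certain. That they hold counts at all shows that runs of 75 bases do not settle which reads were assigned. Among all such loci, 31 had at least 10 counts in a library, and 24 of them matched Gapdh. The 20 of these not yet named were Peli2, a protein-coding gene, with 137 counts in the labelled knockout, 17 in the RIP, 220 in the IgG library and 122 in control islets, and Gm10284, Gm10293, Gm11185, Gm11557, Gm11953, Gm12416, Gm13882, Gm15191, Gm18859, Gm2308, Gm29668, Gm3200, Gm3534, Gm4217, Gm4691, Gm7507, Gm8565, Gm8756 and Gm8864, each with fewer counts than Peli2 in both islet libraries and the IgG library. In the RIP, Gm18859 (90 counts), Gm7507 (31), Gm2308 (20), Gm10284 (18) and Gm8864 (18) had more counts than Peli2. The IgG library held 35, 2, 59, 1 and 3 counts of these loci in that order. Their TMM-scaled ratios of the RIP over IgG were 3.49, 21.1, 0.460, 24.4 and 8.15.

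**Figure D3:**
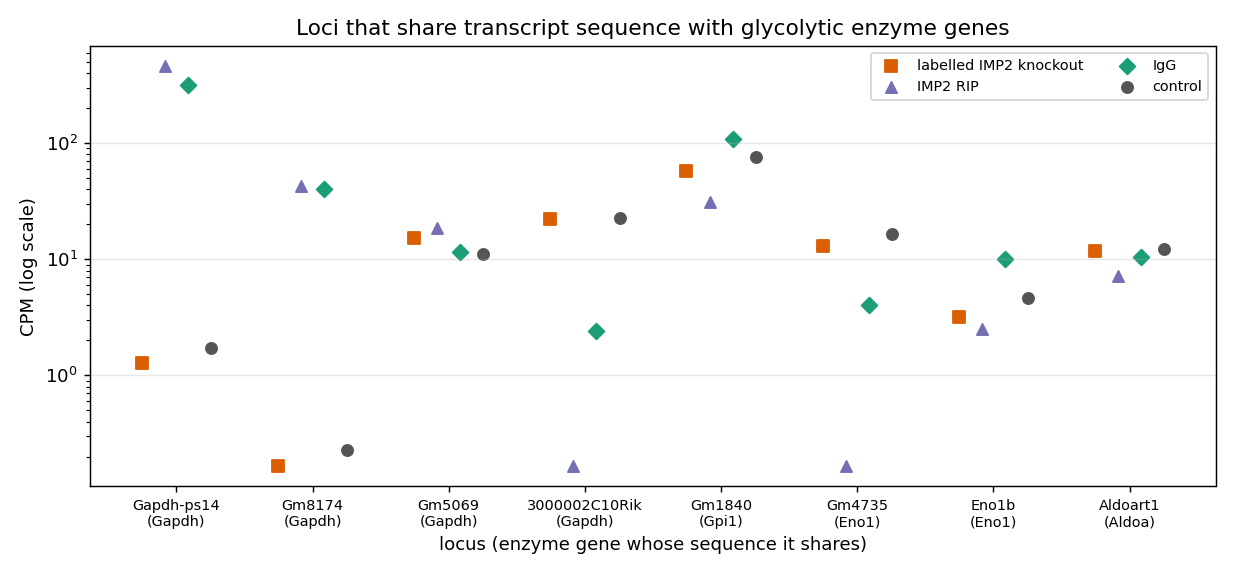
CPM (log scale, y axis) of 8 loci that share sequence with an enzyme gene named in brackets (x axis), with 1 point per library. Gapdh-ps14 and Gm8174 are high in the RIP and IgG libraries and low in both islet libraries, whereas 3000002C10Rik and Gm4735 are lowest in the RIP.

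The first comparison set the library labelled knockout against control islets. Ratios came from counts scaled with TMM (trimmed mean of M values) and have an exact 95% interval that covers counting error only. A difference was called where that interval left out 1 and its size reached 1.5-fold. Because CPM is scaled by library totals and the ratios by TMM, a ratio is not the plain quotient of 2 printed CPM values. Most enzymes lay close to 1. Only Pfkp was called, 1.58-fold lower in the labelled knockout with a ratio of 0.634 (0.585 to 0.687), so that 1 of the 10 was called lower and 0 higher. Of 15735 genes measured, 15.3% were called lower and 6.13% higher, 21.4% in all, so the enzymes' count lies near that background.

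The other enzymes differed less. Pgk1 had a ratio of 0.670 (0.556 to 0.804), 1.49-fold lower and just short of a call, and it was called when library totals (0.647) or median-ratio size factors (0.658) replaced TMM. Eno1 had 0.815 (0.766 to 0.866), Gpi1 0.882 (0.843 to 0.923), Pfkl 0.897 (0.841 to 0.957) and Pkm 0.927 (0.906 to 0.949), all under the limit of size. Aldoa at 0.996 (0.969 to 1.02), Pgam1 at 0.935 (0.727 to 1.2) and Gapdh at 1.14 (0.971 to 1.33) had intervals that include 1. Tpi1 had the ratio 1.06 (1.0 to 1.11). The median log2 ratio of the 10 was -0.13, against 0.00 for all genes, and 2 of the 10 lay above 1, against 50.3% of all genes. With reduced totals, which leave out the counts of hormone genes, acinar genes and the gene Gm42418, 3 of the 10 lay above 1. Aldoa was the third. The Pfkp call was lost at a limit of 2-fold, and with an assumed coefficient of variation of 0.2 per library. Reads of Pfkp and of the antisense gene Pitrm1 over 5.58% of its exons may not be separable.

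Markers of other cells moved with this comparison. All 12 lymphocyte markers were called lower in the labelled knockout, with a sum of 337 CPM there and 1809 CPM in control islets, and all 10 markers of dividing cells, with 130 and 393 CPM. Of the 6 alpha cell markers 4 were called higher, with a sum of 26127 CPM in the labelled knockout and 15260 CPM in control islets, and of the 10 beta cell markers 2, with 14877 and 11696 CPM. In such bulk samples fewer cells of a type and less RNA per cell cannot be told apart. The part of these cells in the ratios of Pfkp and the other enzymes was not tested.

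**Figure D4:**
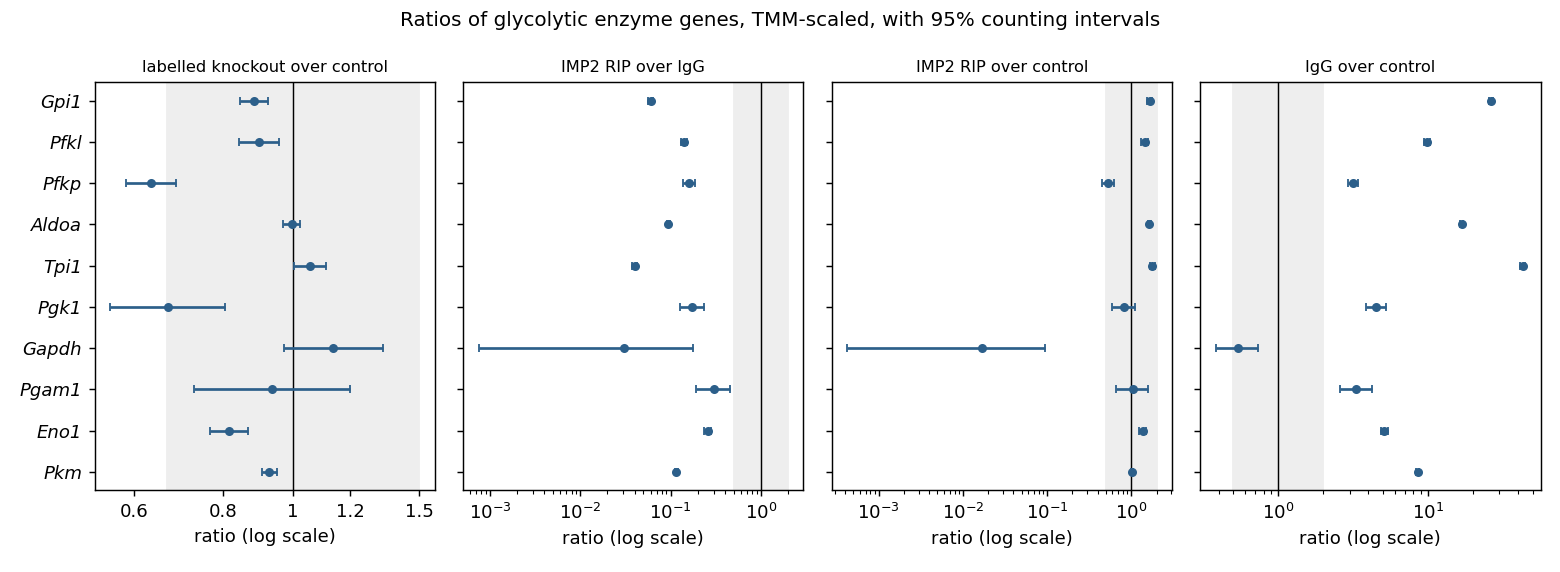
Ratios of the 10 enzyme genes in 4 comparisons (log scale, x axes) with their exact 95% counting intervals, from TMM-scaled counts. The grey band spans ratios under the size needed for a call, and the line marks 1: only Pfkp lies outside the band in the labelled knockout, all 10 lie below it for the RIP over IgG, and 9 lie above it for IgG over control.

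Around these enzymes, 73 other genes of glucose metabolism were described by list, of which 68 were measured in the labelled knockout over control: 2 were called higher and 13 lower. Over all genes measured, 6.13% were called higher and 15.3% lower. The list of glucose entry and phosphorylation had 4 of 9 lower: Hk1 at 0.641, Hk2 at 0.326, Hk3 at 0.468 and Hkdc1 at 0.414. Among lactate genes, Ldha, which reduces pyruvate to lactate, was lower at 0.405 (0.378 to 0.434), with 46.8 CPM in the labelled knockout and 120 in control islets, and so was the lactate transporter Slc16a1 at 0.570. Of the regulators, Pfkfb3, which makes an activator of phosphofructokinase, was lower at 0.470, and so were the transcription factors Hif1a at 0.609 and Myc at 0.551, whereas Pfkfb2, a second such kinase, was higher at 1.59. Tkt, transketolase of the pentose phosphate branch, had 0.556, the mitochondrial aspartate/glutamate carrier Slc25a13 0.580 and Fbp2, a fructose-bisphosphatase of gluconeogenesis, 0.225, all called lower, while its isozyme Fbp1 was higher at 1.80. Of the 13 genes of pyruvate entry into mitochondria 0 were called, and 8 had a ratio above 1.

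The second comparison set the RIP against the IgG library. All 10 enzymes were lower in the RIP, where 30.5% of the 14822 genes measured were called lower and 43.2% higher, 73.7% in all, at a limit of 2-fold. Tpi1 was 25.0-fold lower (ratio 0.0401, 0.0376 to 0.0426), Gpi1 16.7-fold (0.0601, 0.0568 to 0.0634) and Aldoa 10.6-fold (0.0942, 0.0910 to 0.0975). Pkm was 8.70-fold, Pfkl 7.10-fold, Pfkp 6.22-fold and Pgk1 5.75-fold lower. Eno1 was 3.87-fold (0.258, 0.237 to 0.281) and Pgam1 3.31-fold lower (0.302, 0.193 to 0.457). Gapdh, with 1 count in the RIP, had a ratio of 0.0302 with an interval from 0.000748 to 0.177. The median log2 ratio of the 10 was -2.97, against 0.44 for all genes.

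The 6 enzymes with a uniquely alignable share over 80% had a median ratio of 0.105, and the 4 under 60% had 0.216, a split chosen after the values were seen. Library composition moved with these ratios. The 12 adipocyte and brown fat markers summed to 2948 CPM in the RIP and 50451 CPM in the IgG library, and 11 of the 12 were called lower in the RIP. All 10 beta cell markers were called higher in the RIP. Their part in the enzyme ratios was not tested. With the reduced totals (without hormone genes, acinar genes and Gm42418) in place of TMM, Eno1 (0.706) and Pgam1 (0.825) were no longer called. Under them 9206 genes were called higher and 2388 lower, against 6402 and 4518 under TMM and 7670 and 3387 under library totals.

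Among the 73 other genes, 65 were measured, 17 called higher and 39 lower in the RIP, against 43.2% and 30.5% of all genes. All 6 lactate genes were lower, Ldha at a ratio of 0.0469 and Ldhb at 0.0549 among them, as were 5 of 7 pentose phosphate genes (Tkt, Taldo1, Pgd, Pgls and G6pdx) and 11 of the 12 measured genes of pyruvate entry (Mpc2, Pdha1, Pdhb, Dlat, Pdhx, Pcx, Pdk1, Pdk2, Pdk4, Pdp1 and Pdp2), Mpc1 being higher. The glucose entry list was split. Slc2a2, the glucose transporter of beta cells (ratio 189), Slc2a1, Slc2a3 and Hkdc1 were higher in the RIP, and Hk1, Hk2 (0.0816) and Slc2a4, the insulin-responsive transporter of fat and muscle (0.0932), were lower. Of the isozymes of the same steps, Eno2, neuronal enolase, had 247 RIP counts and 0 IgG counts and was higher, while Pfkm, Aldoc and Pgam2 were lower. Higher genes elsewhere were Pfkfb2, Arnt, Myc and Gckr among regulators, Got2 and Slc25a12 of the NADH shuttles, and Fbp1, Pck2, G6pc2 and Slc37a4 of gluconeogenesis. Lower ones were Pfkfb1, Pfkfb3 and Bpgm, the shuttle genes Gpd1, Gpd1l, Gpd2, Mdh2 and Slc25a11, and Fbp2, Pck1 and G6pc.

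Without the IgG library, the RIP can be set against control islets. In this comparison 0 of the 10 enzymes were called higher and 1 lower, where 16.8% of 15968 genes were called higher and 24.3% lower, 41.2% in all. The lower gene was Gapdh, with 1 count in the RIP and 316 in control islets (ratio 0.0168, 0.000424 to 0.0943). Tpi1 had a ratio of 1.79 (1.66 to 1.92), Gpi1 1.65 (1.55 to 1.76), Aldoa 1.65 (1.59 to 1.71), Pfkl 1.45 (1.32 to 1.59) and Eno1 1.37 (1.25 to 1.5), all above 1 and under 2-fold. Pgam1 at 1.04 (0.667 to 1.57), Pkm at 1.02 (0.983 to 1.06) and Pgk1 at 0.815 (0.591 to 1.10) had intervals that include 1, and Pfkp had 0.529 (0.449 to 0.620), which library totals turned into a call at 0.436. The median log2 ratio was 0.27 with TMM and -0.01 with library totals, against -0.12 for all genes with TMM. Under library totals 5 of the 10 lay above 1, in place of 7.

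The 12 adipocyte and brown fat markers were all called higher in the RIP than in control islets, and their part in the ratios above 1 was not tested. The RIP level lay between those of the IgG and control libraries in CPM for 5 of the 10 enzymes (Gpi1, Pfkl, Aldoa, Tpi1 and Eno1), and for 47.3% of 15792 genes. Among genes with more CPM in the IgG library than in control islets, it did so for 5 of the 9 such enzymes and for 35.1% of 3982 genes. Of 67 other genes measured, 18 were called higher and 11 lower, against 16.8% and 24.3% of all genes. Higher were Ldha (3.27), Ldhb and Ldhd, Slc2a4 (40.7), Hk2 (3.0), Gckr, Gpd1 (43.0), Mpc2, Pdhb, Dlat, Pdk2, Pdk4, Fbp1, Pck1, Pgls, Tkt (2.70), Taldo1 and Pgam2. The lower genes included Aldoc, Pklr, Slc2a3, Hk3, Hif1a, Myc, Slc16a3, Slc25a13, Pdk3 and Pdp1.

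The IgG library set against control islets shows the other side of the same 3 libraries, so its values are not independent of the 2 comparisons before it. Here 9 of the 10 enzymes were called higher in the IgG library, where 25.7% of 15352 genes were called higher and 47.3% lower, 73% in all. Tpi1 was 42.9-fold higher (41.4 to 44.5), Gpi1 26.5-fold (25.6 to 27.4) and Aldoa 16.8-fold (16.5 to 17.2). Pfkl was 9.89-fold, Pkm 8.55-fold, Eno1 5.10-fold and Pgk1 4.51-fold higher. Pgam1 was 3.31-fold (2.59 to 4.24) and Pfkp 3.16-fold higher (2.95 to 3.40). Gapdh was not called, at 0.535 (0.383 to 0.733). The median log2 ratio was 2.72, against -0.79 for all genes.

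The size of these ratios rests on the scaling. With library totals Pfkp (1.68) and Pgam1 (1.76) lay under the limit and Gapdh was called lower at 0.284. With the reduced totals (without hormone genes, acinar genes and Gm42418) 5 of the 10 were called higher and Gapdh was lower at 0.193. The other 4 were Eno1 (1.84), Pgk1 (1.63), Pgam1 (1.19) and Pfkp (1.14). Over all genes, TMM gave 3943 higher and 7268 lower, library totals 2577 and 9191, and the reduced totals 1960 and 10390. All 12 adipocyte and brown fat markers and all 5 blood markers were called higher in the IgG library, and all 10 beta cell markers lower. The part of this composition in the enzyme ratios was not tested.

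Of the 73 other genes, 69 were measured, 36 called higher and 20 lower in the IgG library, against 25.7% and 47.3% of all genes. All 6 lactate genes were higher (Ldha, Ldhb, Ldhd, Slc16a1, Slc16a3 and Slc16a7), with Ldha at 67.2-fold and 4271 CPM, above every one of the 10 enzymes in that library by CPM. In the pentose branch Tkt (63.4-fold), Taldo1, Pgls, Pgd and G6pdx were higher. Of the 13 pyruvate genes, 10 were higher (Mpc2, Pdha1, Pdhb, Dlat, Pdhx, Pcx, Pdk1, Pdk2, Pdk4 and Pdp2) and Mpc1 and Pdk3 were lower. Gpd1, cytosolic glycerol-3-phosphate dehydrogenase, which branches off at the trioses, was 753-fold higher, along with Gpd1l, Gpd2, Mdh2 and Slc25a11, and Got2, Slc25a12 and Slc25a13 were lower. Hk2 (35.4-fold), Slc2a4 (420-fold), Pfkfb1, Pfkfb3, Tigar, Bpgm, Fbp2, Pck1, G6pc and Pgam2 were higher. Among the lower genes were Slc2a1, Slc2a2, Slc2a3, Hkdc1, Pfkfb2, Myc, Fbp1, Pck2, G6pc2, Slc37a4, Aldoc and Pklr. Eno2 was also lower, by at least 137-fold against a floor of 3 counts in the IgG library if reads were independent. Reads per molecule were estimated at 21 in that library, so this bound can be too high.

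The share of each isozyme gene in the RNA of its step was described in each library, and enzyme activity was not measured. Shares were taken over CPM per kb of merged exons, and again per uniquely alignable kb. Aldoa made up 95.8% of aldolase in the labelled knockout, 99.7% in the RIP, 99.9% in the IgG library and 94.8% in control islets, and Pkm 97.9%, 100%, 100% and 98.5% of pyruvate kinase. Pklr, the liver-type pyruvate kinase, had 0 counts in the RIP, which allows up to 0.498 CPM, and 0 in the IgG library, which allows up to 0.227 CPM.

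Phosphofructokinase was divided between isozymes. Pfkl had 32.5% of the step in the labelled knockout, 56.5% in the RIP, 71.8% in the IgG library and 34.3% in control islets. Pfkm, the muscle type, had 58.4%, 35.3%, 19.0% and 52.1%, and Pfkp 9.12%, 8.21%, 9.14% and 13.6%. Pfkl thus led in the RIP and IgG libraries and Pfkm in both islet libraries, but per alignable kb Pfkl and Pfkm were level in control islets, at 35.1% and 34.8%. Pfkp had 21.8%, 18.2%, 19.0% and 30.1% per alignable kb in the labelled knockout, RIP, IgG and control libraries. These Pfkp shares can be too high, since runs in the overlap with Pitrm1 were left out of its alignable length. By counts alone, Pfkp gave 22.9% of the step in the labelled knockout (exact 95% interval 21.6 to 24.2), 18.2% in the RIP (15.7 to 20.8), 18.4% in the IgG library (17.5 to 19.3) and 31.2% in control islets (29.9 to 32.4).

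Enolase depended on the length used. Eno1 made up 16.0% of the step in the labelled knockout, 29.1% in the RIP, 70.7% in the IgG library and 19.0% in control islets per kb of exons, where Eno3, the muscle type, had 65.4%, 57.9%, 29.3% and 66.8%. Per alignable kb Eno1 led in each library, at 54.1%, 72.0%, 94.3% and 59.6%. Eno2 made up 17.7% of the step per kb of exons in the labelled knockout, 13% in the RIP, 0% in the IgG library and 13.7% in control islets. Pgam1 made up 68.7% of phosphoglycerate mutase in the labelled knockout, 28.3% in the RIP, 24.1% in the IgG library and 69.2% in control islets, and Pgam2, the muscle type, led in the RIP and IgG libraries on either scale. In the RIP that order rests on 30 counts of Pgam2 and 28 of Pgam1. Reads per molecule were estimated at 18 in the RIP, so the order there is uncertain. The 10 skeletal muscle markers summed to 3.54, 89.3, 251 and 4.93 CPM in the labelled knockout, RIP, IgG and control libraries, and their part in the muscle-type isozymes was not tested.

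**Figure D5:**
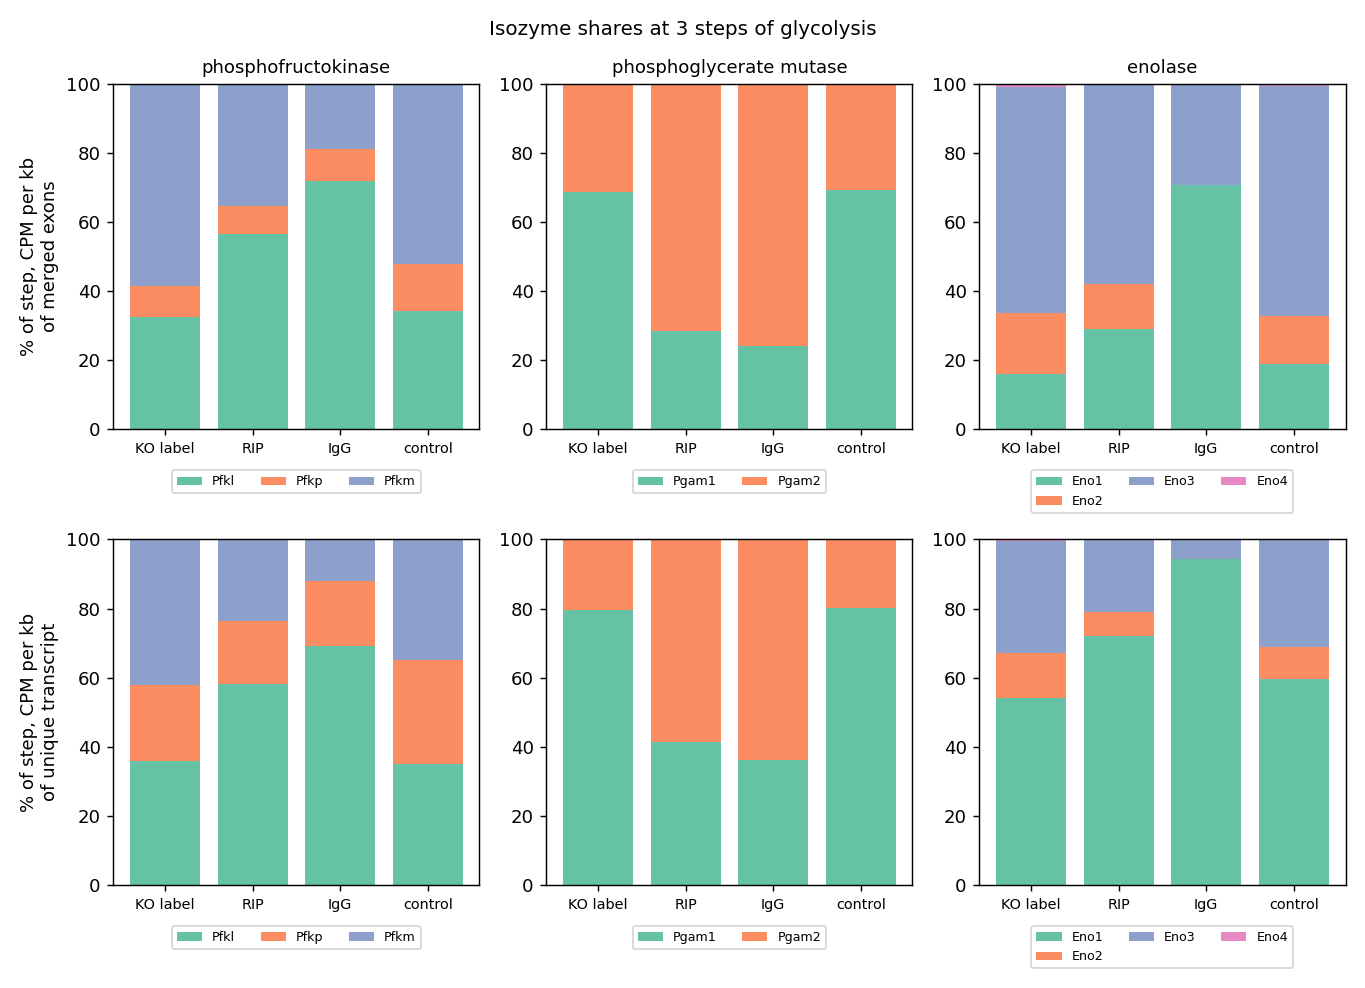
Share of each isozyme in 3 steps (percent of the step, y axes) in the labelled knockout, RIP, IgG and control libraries (x axes), per kb of merged exons (upper row) and per kb of uniquely alignable transcript (lower row). Pfkl leads its step in the RIP and IgG libraries in both rows, and Eno1 gains in the lower row, reaching 94.3% in the IgG library.

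The 10 enzymes were also compared by their profile over the libraries. Each gene's log2(CPM + 1) was centred on its own mean over the 4 libraries and set against the median profile of the 10, which stood at -0.63 in the labelled knockout, -0.55 in the RIP, 1.45 in the IgG library and -0.38 in control islets. By Euclidean distance Pkm (0.323), Pgk1 (0.454), Pfkl (0.475) and Eno1 (0.539) lay closest to it. Pfkp (0.884), Pgam1 (1.01), Aldoa (1.02), Gpi1 (1.60) and Tpi1 (2.08) lay farther, and Gapdh (3.55), with 1 count in the RIP, farthest. Among 9781 other genes with a mean CPM of at least 10, the median distance was 2.84, which only Gapdh of the 10 enzymes exceeded. The closest of these other genes to the median profile were Lamtor5 (0.0688), Gtf3c6 (0.0945), Zadh2 (0.102), Fars2 (0.117) and Aven (0.132). Lamtor5, for one, had 26 CPM in the labelled knockout, 26.6 in the RIP, 109 in the IgG library and 30.7 in control islets.

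Promoters were searched for ACGTG on either strand (CACGT on the other), the core letters of the hypoxia response element known from glycolytic genes and also part of E-box motifs. Windows of 300 bases, 250 before and 50 after each RefSeq start on GRCm38.p6, held it in 5 of the 10 genes (Aldoa, Pgk1, Gapdh, Pgam1 and Pkm), and 6447 of 32851 windows of the same length held it (19.6%), or 21.8% of genes. The Pgk1 window is shown because it holds the motif once on each strand within a short distance, in capitals (chrX:106186850-106187149, plus strand).
Pgk1 promoter: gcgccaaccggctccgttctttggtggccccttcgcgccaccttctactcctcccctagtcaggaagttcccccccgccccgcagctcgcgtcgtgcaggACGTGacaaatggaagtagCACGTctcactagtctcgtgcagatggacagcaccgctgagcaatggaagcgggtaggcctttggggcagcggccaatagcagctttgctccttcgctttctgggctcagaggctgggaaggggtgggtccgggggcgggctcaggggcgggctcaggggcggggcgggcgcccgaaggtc
Of the 5 genes with the motif, Pgk1 had a ratio of 0.670 in the labelled knockout over control. Aldoa had 0.996, Gapdh 1.14, Pgam1 0.935 and Pkm 0.927. Pfkp, the only enzyme called lower there (0.634), lacked the motif in its window. Hif1a, which encodes a factor that binds this element, had 33.7 CPM in the labelled knockout and 57.4 CPM in control islets. A link between these values was not tested. A match of letters is a description of the window and says nothing of binding.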

How the data were processed

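For each library the authors deposited a file of raw read counts by gene, made with STAR and HTSeq on mm10 per the submitters' processing notes. The sources used here state no tool version, annotation or strand option, and antisense or overlapping genes may not be separable. Entries naming no gene held 50.3% (labelled knockout), 72.4% (RIP), 70.5% (IgG) and 50.8% (control) of the deposited counts and stayed out of library sizes.

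GENCODE M21 matched 42548 of 43629 identifiers. Pairs of libraries were scaled by TMM (edgeR 4.0.16, R 4.3.3). Genes with a mean CPM of at least 1 were measured, 0.5 counts were added for log2 values, and ratios have exact (Clopper-Pearson) 95% intervals. Reads are not independent molecules, so intervals and floors (3 counts) cover counting error only. Groups of 1 library allow no replicate check and no p-value. Calls needed 1.5-fold for the labelled knockout and 2-fold elsewhere. A simulation with known folds was used to check the code.

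The design called for unique runs of 75 bases in the genome; transcripts of GENCODE M21 were used instead, so copies without annotation are missed. Other steps used Python 3.11.15, NumPy 2.4.6, pandas 2.3.3, SciPy 1.17.1, Numba 0.67.0 and Matplotlib 3.10.9. A few genes of the lists and 1 step are not reported here. The members, lists and tests were chosen with earlier results of these data known. Named are all 10 enzymes, list genes that were called or lead a step in a library, the 5 most alike genes, and shared loci with at least 10 counts in a library.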

Additional observations from a re-analysis of the deposited data

How the results depend on the processing

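No paired analysis was possible because each group has 1 library, and for the same reason no replicate could be left out. Of 309 values of single enzymes under another setting, 287 kept their side of the limit, 17 were no longer called, 5 became called and 0 called ratios changed direction. Of those not called, 5 ratios crossed 1. Pgam1 and Pkm in the RIP over control stood at 0.856 and 0.842 with library totals. With the reduced totals (without hormone genes, acinar genes and Gm42418) they stood at 0.985 and 0.969, and Aldoa in the labelled knockout at 1.02. Enzymes called in the labelled knockout (1) became 2 under library totals, 2 under median-ratio size factors, 0 at 2-fold and 0 with an assumed coefficient of variation of 0.2. All genes called there (3374) became 3398 under library totals, 3378 under median-ratio size factors, 1573 at 2-fold and 1843 with the assumed variation. They became 2079 at a mean CPM of 5, a limit that also leaves fewer genes measured. The median log2 ratio of the RIP over IgG (-2.97) was -2.28 under library totals and -1.52 under the reduced totals. That of IgG over control (2.72) was 1.81 and 1.25 under these and 2.89 with median-ratio factors. For the RIP over control it was 0.27, and -0.014 under library totals, which moved it below 0; the enzymes called (1) became 2 under library totals and 0 when counts were divided by estimated reads per molecule (18 in the RIP, 21 in the IgG library). With that division Gapdh and Pgam1 were no longer called in the RIP over IgG, and all genes called became 5138 of 10920 there, 2377 of 6574 for the RIP over control and 7368 of 11211 for IgG over control. All genes called in the RIP over control became 3522 at a mean CPM of 5, where again fewer genes were measured, and 3715 at 4-fold. Library totals shifted the all-gene median by 0.69 for RIP over IgG, -0.28 for RIP over control and -0.91 for IgG over control. Median-ratio factors shifted it by 0.17 for IgG over control, and the reduced totals by 1.45 and -1.47 for RIP over IgG and IgG over control. The highest over the lowest enzyme per kb was 55.4, 4823, 1545 and 52.1 in the labelled knockout, RIP, IgG and control libraries, and 58.6, 332, 270.2 and 59.1 per alignable kb; in the RIP it rests on 1 count of Gapdh. The median alignable share (81.9%) was 70.2% with runs of 50 bases and 87.1% with 100. An enzyme led 21 of 28 pairs of step and library per kb, and 25 per alignable kb. The cause of these changes was not tested. In depth, Gapdh (1 count) and Pgam1 (28 counts) had the fewest counts of the 10 in the RIP.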
